A study of Mus musculus with 40 samples.

Results

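The 9 developmental transcription regulators Hand2, Msx1, Msx2, Tfap2a, Tfap2b, Lbh, Lhx1, Foxf1a and Meox1 were followed in mouse embryonic stem cells (ESC) of a GLP mutant and of wild type. They were found by symbol, 9 of the 23228 symbols shared by all libraries, and were chosen by their RPKM levels here, around regulators whose induction by retinoic acid (RA) was weaker in the mutant. Because these same values chose them, differences of the 9 genes are described with their errors and without tests. RNA came from cells homozygous for the GLP 3A mutation given RA, wild-type cells given RA, untreated GLP 3A cells and untreated wild-type cells, with 2 libraries in each of the 4 groups. GLP is the histone H3 lysine 9 methyltransferase encoded by Ehmt1, and the series asks how GLP passes histone marks on. The labels put all the cells on a C57BL/6 (mixed) background. All were grown on feeders and then moved to feeder-free 2i medium for 2 passages, so that feeder cells would be lost. RA was all-trans retinoic acid at 1 uM, and the growth factor LIF, which holds stem cells undifferentiated, was taken away at the same step. What RA did and what losing LIF did cannot be told apart, and the labels do not give the length of treatment. They do not say how many clones the mutant cells came from or whether replicates were separate cultures. The p-values below thus cover the spread between these libraries, which may be technical.

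RA binds nuclear receptors that switch on regulators of the embryonic axis, limb buds and mesoderm, and ESC given RA lose pluripotency genes while such regulators come on. Hand2 is a basic helix-loop-helix factor of limb bud, heart and branchial arch mesenchyme, where it acts upstream of Shh in the limb. Msx1 and Msx2 are homeodomain repressors that act downstream of bone morphogenetic proteins (BMPs) in limb, tooth and skull mesenchyme. Tfap2a and Tfap2b encode AP-2 factors of neural crest and surface ectoderm. Lbh is a small transcriptional cofactor named for its expression in limb bud and heart. Lhx1 is a LIM homeodomain factor needed for head and kidney formation, Foxf1a a forkhead factor of splanchnic mesoderm, and Meox1 a homeodomain factor of the somites. Basic helix-loop-helix factors bind E-boxes, and many homeodomain factors bind sites with a TAAT core.

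The start-proximal promoters of the members with the largest genotype differences, together with that of Msx2 for comparison with Msx1, are shown as the 250 bases before the annotated start (RefSeq, GRCm38.p6). Promoter sequence was matched for 7 of the 9 genes, and Foxf1a and Meox1 are named only. Capitals mark the motifs that were searched on both strands: the E-box CANNTG, the AP-2 motif GCCNNNGGC, the retinoid receptor half-site AGGTCA, the homeodomain core TAATTA and the TATA box TATAAA. Each sequence runs 5′ to 3′ towards the start of its gene.
Hand2 (chr8:57320733-57320982, plus strand): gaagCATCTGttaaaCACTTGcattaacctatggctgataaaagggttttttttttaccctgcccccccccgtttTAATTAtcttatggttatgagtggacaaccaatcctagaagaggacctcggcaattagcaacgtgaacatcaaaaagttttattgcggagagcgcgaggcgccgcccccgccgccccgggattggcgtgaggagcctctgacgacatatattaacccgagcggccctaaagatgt
Msx1 (chr5:37824586-37824835, minus strand): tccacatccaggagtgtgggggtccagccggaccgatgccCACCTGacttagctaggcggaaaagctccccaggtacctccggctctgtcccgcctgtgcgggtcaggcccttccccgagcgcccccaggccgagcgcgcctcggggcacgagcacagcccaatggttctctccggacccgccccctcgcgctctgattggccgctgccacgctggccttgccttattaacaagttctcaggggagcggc
Msx2 (chr13:53472781-53473030, minus strand): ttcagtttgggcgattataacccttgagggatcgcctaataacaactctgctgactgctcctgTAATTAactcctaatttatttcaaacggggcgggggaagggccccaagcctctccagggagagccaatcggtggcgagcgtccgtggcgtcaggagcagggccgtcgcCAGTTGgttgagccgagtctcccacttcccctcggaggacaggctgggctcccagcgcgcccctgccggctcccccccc
Tfap2b (chr1:19211804-19212053, plus strand): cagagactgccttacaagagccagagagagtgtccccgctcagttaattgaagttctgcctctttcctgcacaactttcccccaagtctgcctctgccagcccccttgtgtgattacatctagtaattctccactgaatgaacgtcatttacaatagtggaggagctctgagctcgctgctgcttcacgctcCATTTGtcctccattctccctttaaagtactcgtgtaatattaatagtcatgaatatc
Lbh (chr17:72918055-72918304, plus strand): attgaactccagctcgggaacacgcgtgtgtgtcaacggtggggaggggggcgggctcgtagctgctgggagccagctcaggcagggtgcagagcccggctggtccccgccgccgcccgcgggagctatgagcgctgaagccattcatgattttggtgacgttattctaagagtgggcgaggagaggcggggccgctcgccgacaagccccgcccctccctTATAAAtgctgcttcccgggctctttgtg

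The Hand2 window has 2 E-boxes, 246 and 235 bases before the start, and a TAATTA 175 bases before it. Msx1 has 1 E-box at 210 bases and Msx2 1 E-box at 79 bases with a TAATTA at 187 bases. Tfap2b has 1 E-box at 58 bases, and Lbh has a TATA box 29 bases before its start and no E-box. Of the others, Tfap2a, with 2 annotated starts, has a TAATTA 32 bases before one of them, and the Lhx1 window holds none of the 5 motifs. The letters AGGTCA and the AP-2 motif were in none of the 8 windows. Of all 32851 promoters of that length, 66.2% hold an E-box, 14% AGGTCA, 13.7% the AP-2 motif, 12.4% a TATA box and 4.84% TAATTA, so these matches describe the letters only. The GC content ran from 46.4% in the Tfap2b window to 68.0% in the Msx1 window.

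Levels are given as RPKM, a read density corrected for the length of a gene and the size of a library, so that genes can be compared with each other. Taking untreated wild-type replicate 1 as 1, estimated depth was 0.96 to 1.24 for replicate 1 libraries and 0.43 to 0.57 for replicate 2 libraries, so a level near 0 rests on few reads, and on fewer in replicate 2. Symbols at 1 RPKM or more numbered 11344 to 12369 per library. With RA, Ehmt1 stood at 13.0 and 13.9 RPKM in GLP 3A cells and 24.4 and 23.5 RPKM in wild-type cells, and was called lower in the mutant (log2 difference -0.79 ± 0.07, SE, limma adjusted p = 0.0041). The files hold no sequence, so this level does not show the mutation itself. In the untreated libraries each of 10 ESC markers stood at 1 RPKM or more, and their sum was 4572 to 5523 RPKM. In GLP 3A cells with RA that sum was 389 and 181 RPKM, and in wild-type cells with RA 256 and 141 RPKM.

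Across the 9 genes, induction by RA was seen in both genotypes and was smaller in GLP 3A for each of them, though by less than its error for Foxf1a. All log2 differences are of RPKM + 1, which understates changes of genes near 0. The RA difference had a median of 1.48 over the 9 genes in GLP 3A cells (range 0.35 to 3.33) and of 3.18 in wild-type cells (range 0.61 to 5.40), beside medians of -0.07 and -0.03 over all 13198 genes tested. The difference between these responses had a median of -0.87, from -2.52 for Hand2 to -0.13 for Foxf1a, beside -0.06 over all genes. With RA, both GLP 3A libraries lay below both wild-type libraries for 8 of the 9 genes and above for 0. Of all genes tested, 27.2% were lower and 24.1% higher in this sense, and nothing is read from the count since these libraries chose the members. In both genotypes all 9 genes had their RA libraries above their untreated ones, as had 39.2% of all genes in GLP 3A and 41.7% in wild type. All 9 passed the filter of 1 RPKM in 2 libraries, and they did so through the RA-treated libraries. In bulk RNA, fewer cells expressing a gene and less RNA per cell cannot be told apart.

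**Figure D1:**
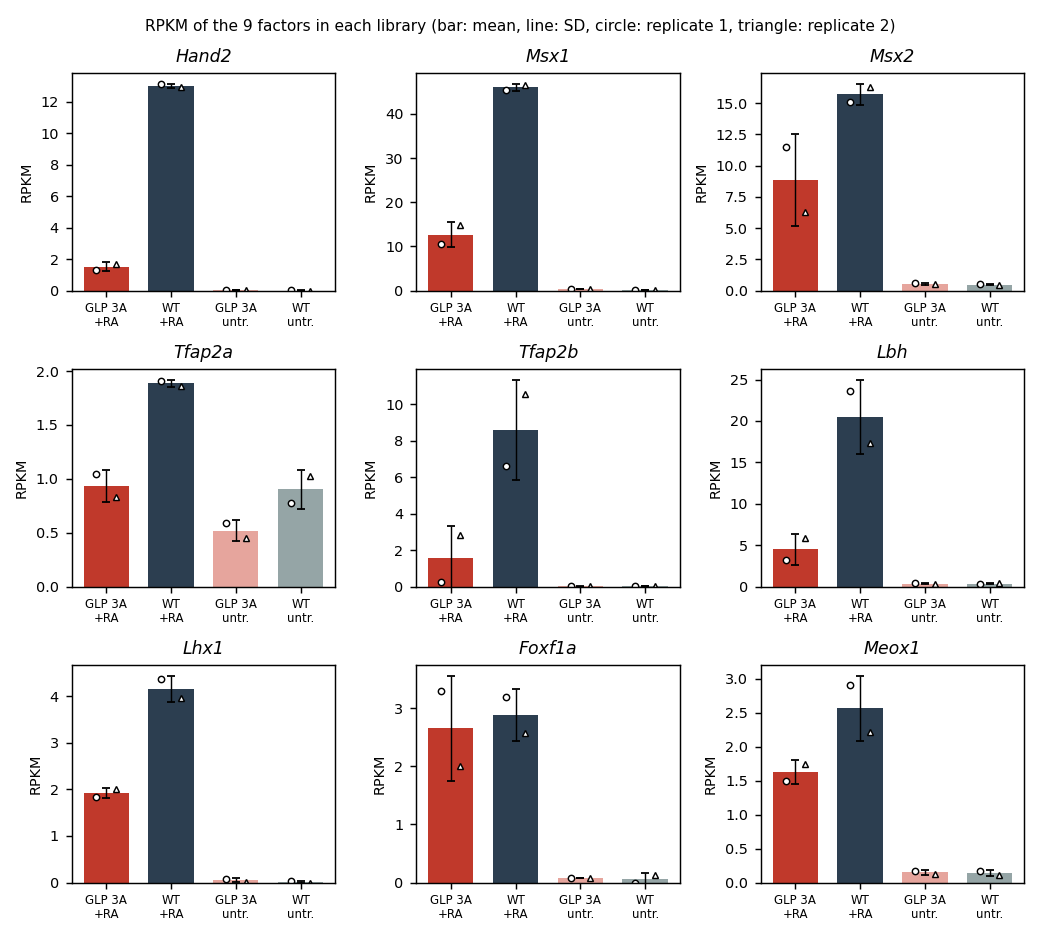
RPKM of each of the 9 regulators (vertical axis, linear, starting at 0, a scale of its own per gene) in GLP 3A with RA, wild type with RA, untreated GLP 3A and untreated wild type. Bars are means of 2 libraries, lines are SD, circles are replicate 1 and triangles replicate 2. For Hand2 the GLP 3A libraries with RA sit at 1.33 and 1.71 RPKM and the wild-type libraries at 13.1 and 12.9 RPKM, whereas for Foxf1a the 2 genotypes overlap.

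Hand2, at chromosome 8, bases 59799779 to 59803314 (mm9), had the lowest mutant level as a share of that in wild type. It stood at 1.33 and 1.71 RPKM in GLP 3A cells with RA and at 13.1 and 12.9 RPKM in wild-type cells with RA. Without RA it was near 0, with 0.020 and 0.038 RPKM in GLP 3A cells and 0.009 and 0 RPKM in wild-type cells. The replicates lay close together and the genotypes did not overlap with RA. The mean with RA was 1.52 ± 0.27 RPKM in GLP 3A cells and 13.0 ± 0.14 RPKM in wild-type cells (SD, n = 2 each), so the mutant level was 11.7% of the wild-type level. The log2 difference was -2.48 ± 0.11 (SE), and the RA response was smaller in GLP 3A by 2.62 in replicate 1 and 2.42 in replicate 2.

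Msx1 had the highest mean of the 9 with RA in both genotypes, though in GLP 3A replicate 1 it lay below Msx2 (11.5 RPKM). Msx1 measured 10.6 and 14.8 RPKM in GLP 3A cells with RA and 45.5 and 46.6 RPKM in wild-type cells with RA, where the mutant mean was 27.6% of the wild-type mean. Untreated GLP 3A cells had 0.397 and 0.307 RPKM, above the 0.097 and 0.135 RPKM of untreated wild-type cells. Msx1 thus lay on opposite sides of wild type in the 2 states, low in each case without RA. The log2 difference between genotypes was -1.80 ± 0.15 (SE, n = 2 per group) with RA and 0.28 ± 0.15 without. The gene (chromosome 5, bases 38211729 to 38215824, mm9) shares its listed locus with Msx1as, an antisense transcript. No label gives the strand protocol, so reads of Msx1 and Msx1as cannot be told apart and these values are uncertain.

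Msx2 (chromosome 13, bases 53562249 to 53568149, mm9) showed a smaller difference than its paralog, and its 2 mutant libraries were far apart. With RA it measured 11.5 and 6.26 RPKM in GLP 3A cells and 15.1 and 16.3 RPKM in wild-type cells. The mean of 8.87 ± 3.69 RPKM in GLP 3A cells was 56.5% of the 15.7 ± 0.87 RPKM in wild-type cells (SD, n = 2 each). The log2 difference of -0.81 ± 0.24 (SE) became -1.20 when GLP 3A replicate 1 was left out and -0.42 when replicate 2 was, so its size rests on which mutant library is used. Untreated levels overlapped, at 0.611 and 0.494 RPKM in GLP 3A cells and 0.517 and 0.459 RPKM in wild-type cells.

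Lbh, the limb bud and heart cofactor (chromosome 17, bases 73267644 to 73291286, mm9), had the level nearest to Msx1 in wild-type cells with RA. It stood at 3.19 and 5.81 RPKM in GLP 3A cells with RA and at 23.7 and 17.3 RPKM in wild-type cells with RA. The 2 genotypes did not overlap although the replicates of each spread, and the mutant mean was 22.0% of the wild-type mean. Without RA the genotypes overlapped, at 0.384 and 0.317 RPKM in GLP 3A cells and 0.298 and 0.416 RPKM in wild-type cells. The log2 difference with RA was -1.99 ± 0.25 (SE, n = 2 per group), and the RA response was smaller in GLP 3A by 2.65 in replicate 1 and 1.32 in replicate 2.

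The AP-2 genes differed from each other in level and in spread. Tfap2b (chromosome 1, bases 19198994 to 19228815, mm9) measured 0.274 and 2.82 RPKM in GLP 3A cells with RA and 6.63 and 10.5 RPKM in wild-type cells with RA. Both mutant libraries were below both wild-type ones but lay far from each other. The mean was 1.54 ± 1.80 RPKM in GLP 3A cells and 8.58 ± 2.76 RPKM in wild-type cells (SD, n = 2 each). Its log2 difference of -2.09 ± 0.49 (SE) had the largest error of the 9 and became -1.30 when GLP 3A replicate 1 was left out and -2.88 when replicate 2 was. Untreated cells had 0.005 and 0.021 RPKM in GLP 3A and 0.037 and 0.028 RPKM in wild type.

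Tfap2a (chromosome 13, bases 40811043 to 40829192, mm9) was the 1 member with a level near 1 RPKM before treatment. With RA it measured 1.04 and 0.829 RPKM in GLP 3A cells and 1.91 and 1.87 RPKM in wild-type cells, and without RA 0.587 and 0.453 RPKM in GLP 3A cells and 0.773 and 1.03 RPKM in wild-type cells. The mutant libraries were lower in both states, and GLP 3A cells with RA overlapped with untreated wild-type cells. The log2 difference between genotypes was -0.58 ± 0.12 (SE, n = 2 per group) with RA and -0.32 ± 0.12 without. Of the difference between the RA responses, -0.26 ± 0.17 then remained, so Tfap2a is a member whose mutant level was low with RA while its response differed little more than its error.

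Lhx1, the head and kidney factor (chromosome 11, bases 84332880 to 84339036, mm9), was lower by about the same amount in both replicates. It stood at 1.84 and 2.00 RPKM in GLP 3A cells with RA and at 4.36 and 3.95 RPKM in wild-type cells with RA. Untreated cells had 0.076 and 0.019 RPKM in GLP 3A and 0.035 and 0 RPKM in wild type. The genotypes overlapped only without RA, and the log2 difference with RA was -0.82 ± 0.10 (SE, n = 2 per group). The GLP 3A mean in RPKM was 46.2% of the wild-type mean.

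Meox1 and Foxf1a showed the smallest gaps. Meox1, the somite factor (chromosome 11, bases 101738823 to 101755668, mm9), measured 1.50 and 1.75 RPKM in GLP 3A cells with RA and 2.90 and 2.22 RPKM in wild-type cells with RA. The mutant libraries lay below both wild-type ones, at 63.4% of the mean, and the log2 difference was -0.44 ± 0.13 (SE). Foxf1a, the splanchnic mesoderm factor (chromosome 8, bases 123608373 to 123610779, mm9), measured 3.30 and 2.01 RPKM in GLP 3A cells with RA and 3.20 and 2.57 RPKM in wild-type cells with RA. These overlapped, and the log2 difference of -0.11 ± 0.19 (SE) was smaller than its error. It became 0.15 without GLP 3A replicate 2 and 0.01 without wild-type replicate 1, so Foxf1a has no lower level in GLP 3A cells that exceeds its spread. Both genes were low without RA, at most 0.175 RPKM for Meox1 and 0.137 RPKM for Foxf1a in any untreated library.

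**Figure D2:**
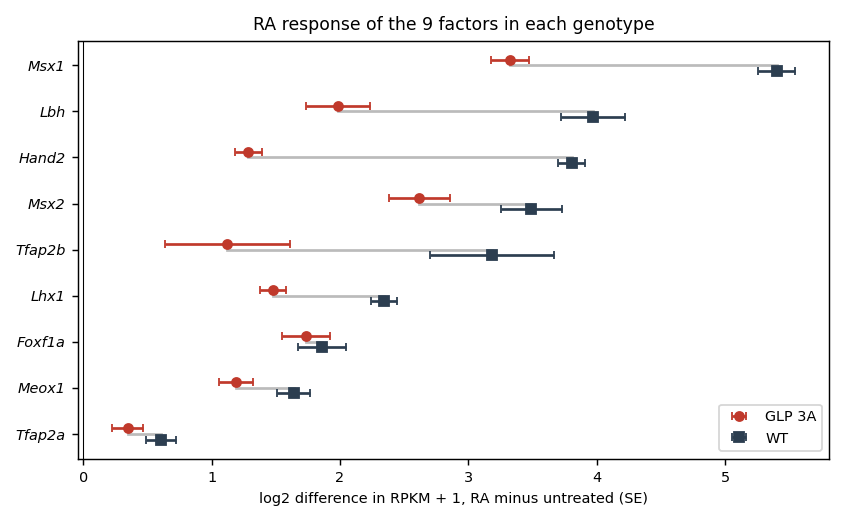
Log2 difference in RPKM + 1 between RA-treated and untreated cells (horizontal axis) for each of the 9 regulators, ordered by the response in wild type. Red circles are GLP 3A and dark squares wild type, bars are SE, and grey lines join the 2 genotypes of a gene. Each GLP 3A point lies to the left of its wild-type point, far apart for Hand2 (1.29 in GLP 3A and 3.80 in wild type) and nearly together for Foxf1a (1.74 in GLP 3A and 1.86 in wild type).

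The order of the 9 levels with RA was not the same in the 2 genotypes. In wild-type cells it ran Msx1, Lbh, Msx2, Hand2, Tfap2b, Lhx1, Foxf1a, Meox1 and Tfap2a, from 46.1 RPKM to 1.89 RPKM. There the libraries of Foxf1a and Meox1 overlapped, and those of the other neighbours in this order did not. In GLP 3A cells Msx1 (mean 12.7 RPKM) was again first, Msx2 (8.87 RPKM) and Lbh (4.50 RPKM) followed, and Foxf1a (2.65 RPKM) came before Lhx1, Meox1, Tfap2b and Hand2 (1.92 to 1.52 RPKM). Tfap2a was last at 0.935 RPKM. Among these, the libraries of Msx1 and Msx2 overlapped, Lbh overlapped with Foxf1a, Meox1 overlapped with Hand2, and Tfap2b overlapped with each of the genes near it. Hand2 held the fourth place in wild-type cells and the eighth in GLP 3A cells.

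Without RA the members hardly separated the genotypes. The median log2 difference, GLP 3A minus wild type, was 0.02 over the 9 genes and 0.04 over all genes tested. Tfap2a and Tfap2b were lower in both GLP 3A libraries and Msx1 and Hand2 higher, 2 of 9 in each direction. Of all genes tested, 27.7% were lower and 40.3% higher in this sense. Hand2 and Tfap2b were below 0.05 RPKM in each untreated library, so their order there rests on few reads.

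Some members lie on chromosomes whose genes as a whole differed between the genotypes. Tfap2b lies on chromosome 1, whose 710 tested genes had a median log2 difference of -0.31 with RA and -0.24 without, GLP 3A minus wild type. Lhx1 and Meox1 lie on chromosome 11, whose 1114 tested genes had a median of 0.24 in both states, opposite to the 2 members. The chromosomes of the other 6 members had medians from -0.06 to -0.01 with RA. Pax3, a related gene tested below, also lies on chromosome 1. The part that position plays in the Tfap2b and Pax3 values was not tested. Replicates can be compared alone as well: the median genotype difference of the 9 genes with RA was -0.91 in replicate 1 and -1.25 in replicate 2.

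Markers of other cell types were compared in the RA-treated libraries. With RA, 3 of the 10 ESC markers were called higher in GLP 3A cells and 0 lower. Nanog was among them, at 13.1 and 6.30 RPKM in GLP 3A cells and 1.51 and 0.814 RPKM in wild-type cells (limma adjusted p = 0.0146), with Klf2 (0.0183) and Tdgf1 (0.0261). Sox2 and Klf4, of the same list, lay the other way and were not called (log2 differences -0.61 ± 0.23 and -0.53 ± 0.37, SE). In other lists, 2 of 6 epidermis, 1 of 6 smooth muscle and 1 of 7 fibroblast genes tested were called higher in GLP 3A. Called lower were 1 of 7 for fibroblasts, 1 of 10 for extraembryonic endoderm and 1 of 8 for neural cells. Of all genes tested, 5.30% were called higher and 5.31% lower with RA. With 6 to 10 genes tested per list, 1 call is no result about a cell type. The 10 markers of extraembryonic endoderm summed to 269 and 146 RPKM in GLP 3A cells with RA and to 631 and 183 RPKM in wild-type cells with RA. Those of fibroblasts and feeders summed to 82.5 and 127 RPKM in GLP 3A and 109 and 114 RPKM in wild type, and those of epidermis to 273 and 231 RPKM in GLP 3A and 186 and 158 RPKM in wild type. The 9 neural ones summed to 65.2 and 79.2 RPKM in GLP 3A and 72.5 and 90.1 RPKM in wild type. The 6 smooth muscle markers summed to 1956 and 1249 RPKM in GLP 3A cells and 935 and 1321 RPKM in wild-type cells. None of these lists had a gene at 0 in both libraries of an RA-treated group. Their part in the lower levels of the 9 genes was not tested.

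Genes of the same families and tissues, which the rule did not use, were then tested: 7 lists with 129 genes, of which 85 passed the filter. With RA, 17 of the 85 were called lower in GLP 3A and 1 higher at a limma adjusted p under 0.05, 21.2% in all. Of all genes tested, 5.31% were called lower and 5.30% higher, 10.6% together. The median log2 difference of the 85 was -0.36, beside -0.01 over all genes, and 67 of 85 lay below 0. Without RA, 5 were called lower and 3 higher, beside 4.15% and 7.52% of all genes, 11.7% together. These were Fst, Id1, Prrx2, Tcf15 and Chrd (at a locus shared with Thpo) on the lower side, and Id3 was among the higher ones. With RA against untreated, 61 of the 85 were called higher in GLP 3A cells, beside 32.3% of all genes, and 68 in wild-type cells, beside 33.7%. These counts are in part set by the filter, since 48 of the 85 were under 1 RPKM in each untreated library and were tested through their RA levels. Of the other 37, 18 were called higher in GLP 3A cells and 21 in wild-type cells. The RA response itself was called smaller in GLP 3A for Id3, Pax3 and Gata3 and larger for Tcf15, 4.71% of the 85. Of all genes, 1.24% were called smaller and 0.561% larger, 1.80% together. The filter also bears on calls between genotypes with RA. Alx1, Pax2 and Pax3, called lower in GLP 3A, reached 1 RPKM only in the wild-type RA libraries. They were thus tested only through the group where they were high, and their direction is in part set by the filter. These lists were chosen with earlier results of the same data known, so their direction is not independent of the members.

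Most paralogs of the 9 regulators were too low to be tested. Of 18 relatives 5 were, among them Hand1, with 3.42 and 3.20 RPKM in GLP 3A cells and 4.51 and 1.55 RPKM in wild-type cells with RA. Tfap2c, the AP-2 factor of pluripotent cells and trophoblast, was the 1 family member called between genotypes with RA, and it was higher in GLP 3A, at 9.21 and 6.63 RPKM against 4.29 and 2.39 RPKM in wild type (log2 difference 1.06 ± 0.23, SE, limma adjusted p = 0.038). Tfap2c fell with RA in both genotypes (limma adjusted p = 0.000137 in GLP 3A and 9.72e-05 in wild type). Its untreated level was 52.4 and 48.7 RPKM in GLP 3A cells and 28.8 and 28.9 RPKM in wild-type cells. That difference lay the same way and was not called (0.79 ± 0.23, SE, limma adjusted p = 0.0751). Its RA response was not called different (0.27 ± 0.32, adjusted p = 0.676).

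Of 26 tested limb and mesenchyme factors, 5 were called lower in GLP 3A with RA and 0 higher by limma, and at an unadjusted p under 0.05 these numbers were 17 and 0. At that unadjusted threshold, 15.1% of all genes were lower and 14.2% higher. The 5 were Irx5 (-0.81 ± 0.18, SE), Foxd1 (-0.79 ± 0.18), Alx1 (-0.72 ± 0.13), Prrx2 (-0.41 ± 0.08) and Gli3 (-0.36 ± 0.07), the last of which acts against Hand2 in the limb bud and lies outside the naming rule. Without RA, 1 of the 26 was called lower and 1 higher, beside 4.15% and 7.52% of all genes. The lower one was Prrx2 (-0.795 ± 0.084, limma adjusted p = 0.00429), so its gap was present before RA. Its RA response was larger in GLP 3A, uncalled (0.389 ± 0.119, adjusted p = 0.142). Twist1, a partner of Hand2, had 7.26 and 16.6 RPKM in GLP 3A cells and 21.6 and 33.5 RPKM in wild-type cells and did not pass (adjusted p = 0.0871).

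**Figure D3:**
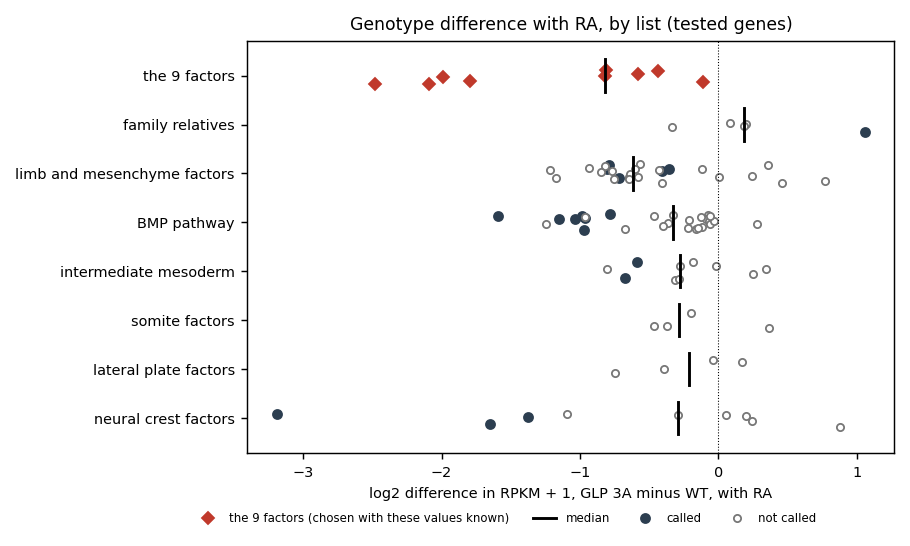
Log2 difference in RPKM + 1 between GLP 3A and wild type with RA (horizontal axis) for each tested gene, 1 row per list. Red diamonds are the 9 regulators, filled circles genes called by limma, open circles genes not called, and black bars medians. The 9 regulators have a median of -0.82 and were chosen with these values known, and the BMP pathway row has 26 of its 27 genes below 0.

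The BMP pathway, which acts upstream of Msx1, Msx2 and Hand2, had 7 of 27 tested genes called lower in GLP 3A with RA and 0 higher by limma, or 12 and 0 at an unadjusted p under 0.05, beside the same 15.1% and 14.2% of all genes. The ligand Bmp4 measured 13.9 and 32.7 RPKM in GLP 3A cells and 55.0 and 80.1 RPKM in wild-type cells (log2 difference -1.59 ± 0.38, SE, limma adjusted p = 0.0484), at a locus shared with Gm15217. The receptor Acvr2b differed by -1.04 ± 0.15, the inhibitory Smad6 by -0.98 ± 0.11 and the antagonist Fst by -0.78 ± 0.08. Among the Id genes, direct targets of BMP signals, Id1 had 65.2 and 77.2 RPKM in GLP 3A cells and 140 and 139 RPKM in wild-type cells. Id3 (-0.97 ± 0.14) and Id4 (-1.15 ± 0.22) were also called, and Id2 had 39.7 and 81.9 RPKM in GLP 3A cells and 103 and 122 RPKM in wild-type cells and was not called (adjusted p = 0.0975). Without RA, 3 of the 27 were called lower and 1 higher, beside 4.15% and 7.52% of all genes. Lower by limma were Chrd, Fst (-0.86 ± 0.08, adjusted p = 0.00327) and Id1 (-0.76 ± 0.11, adjusted p = 0.0122). Id3 was called higher (0.61 ± 0.14, adjusted p = 0.0445), and Id4 lay above wild type uncalled (0.29 ± 0.22). Bmp4 and Acvr2b lay lower uncalled (-1.16 ± 0.38 and -0.48 ± 0.15). Bmp4 had 13.8 and 11.7 RPKM in untreated GLP 3A cells and 29.0 and 30.0 RPKM in untreated wild-type cells. The RA response of Bmp4 was not called different (-0.43 ± 0.53, adjusted p = 0.694).

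**Figure D4:**
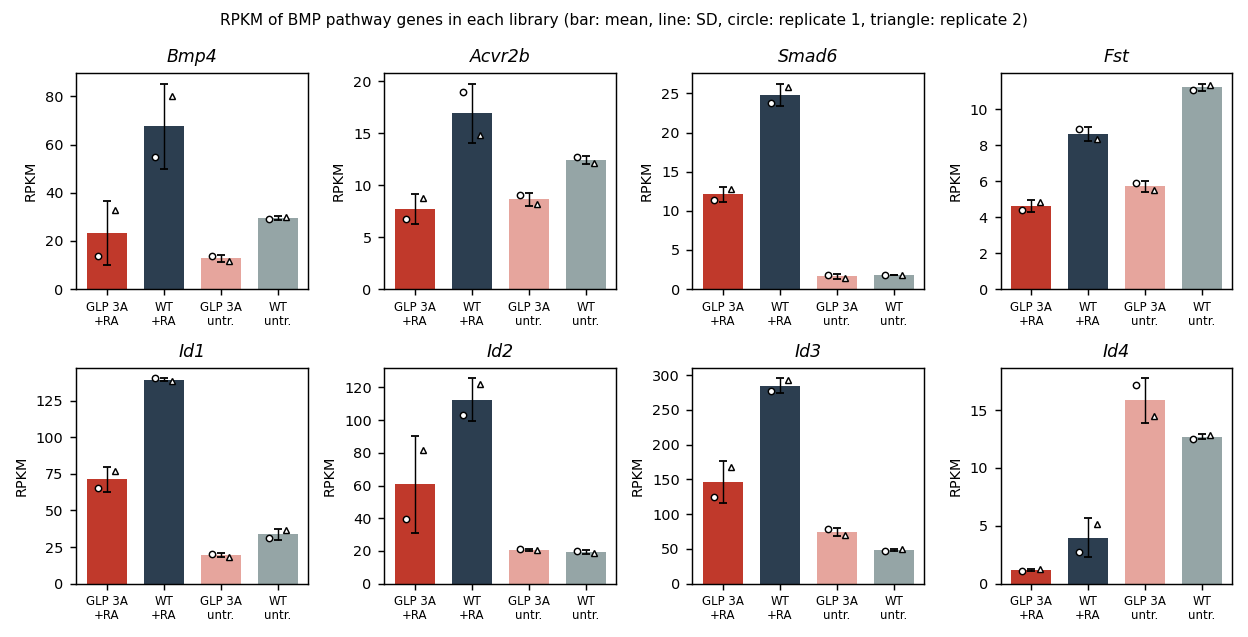
RPKM of 8 BMP pathway genes (vertical axis, linear, starting at 0) in GLP 3A with RA, wild type with RA, untreated GLP 3A and untreated wild type, drawn as means with SD and a point per library. Bmp4, Acvr2b, Smad6, Fst and the Id genes have lower means with RA in GLP 3A than in wild type, and the 2 mutant Id2 libraries, at 39.7 and 81.9 RPKM, are far apart. Drawn are the 7 of 27 tested genes called lower with RA, and Id2, so their shared direction follows from that choice. Of the genes not drawn, Bmp2 lay above wild type uncalled (log2 difference 0.28 ± 0.15, SE).

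In the fields where the other members act, the neural crest list had 3 of 9 tested genes called lower with RA and 0 higher. Of all genes tested, 5.31% were called lower and 5.30% higher. By sign, 5 of the 9 lay below 0. The others lay above 0 uncalled, among them Ngfr (0.88 ± 0.35, SE), Foxd3 (0.25 ± 0.10) and Erbb3 (0.20 ± 0.23). Crabp1, an RA-binding protein, measured 10.7 and 28.5 RPKM in GLP 3A cells and 183 and 155 RPKM in wild-type cells (-3.19 ± 0.39, SE, limma adjusted p = 0.0112), and Zic1 (-1.65 ± 0.20) and Pax3 (-1.38 ± 0.15) were also lower. Of 10 intermediate mesoderm genes, the field of Lhx1, Gata3 (-0.67 ± 0.12) and Pax2 (-0.59 ± 0.14, at a locus shared with 1700039E22Rik) were called lower. None was called higher, and 8 of the 10 lay below 0. Of 4 somite and 4 lateral plate genes tested, 0 were called with RA by limma, while 2 somite and 1 lateral plate gene were lower at an unadjusted p under 0.05, which with 4 genes per list and 15.1% of all genes lower is no result about these lists.

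These calls lean on all 8 libraries for their estimate of spread. When each library was left out in turn, with the lone library of that group assumed to vary like the others, Smad6, Fst, Id1 and Pax3 were called each time. Crabp1 was lost without wild-type RA replicate 1 (adjusted p = 0.0553) and Zic1 without wild-type RA replicate 2 (0.0527). The other 12 were lost in 4 to 8 of the 8 fits, with highest adjusted p-values from 0.0637 to 0.169. The calls lost numbered 10 without GLP 3A RA replicate 1, 1 without GLP 3A RA replicate 2, 11 and 12 without wild-type RA replicates 1 and 2, 11 and 10 without untreated GLP 3A replicates 1 and 2, and 12 without either untreated wild-type library. With the 4 RA libraries alone, 0 of the 85 and 15 of the 13198 genes were called by limma, and at an unadjusted p under 0.05 29 of the 85 were lower and 1 higher, beside 8.52% and 8.46% of all genes. Of the calls without RA, those of Fst and Tcf15 were made in each of the 8 fits that left out a library. Id1 and Chrd were lost without any one of the 4 untreated libraries (highest adjusted p 0.0957 for Id1 and 0.215 for Chrd), Id3 was lost in 6 fits (0.231), and Prrx2 was lost without untreated wild-type replicate 2 (0.0514).

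The genes whose pattern was most like that of the 9 regulators were Scube1, Nhsl2, Hhip, Rdh10 and Pdgfra, with a Pearson r of 0.998 over the 8 libraries to the mean standardized profile. Such likeness is common here, since 747 genes had an r above 0.95. Rdh10, an enzyme that makes the precursor of RA, had 15.9 and 19.2 RPKM in GLP 3A cells with RA and 44.2 and 47.9 RPKM in wild-type cells with RA. Pdgfra, a mesenchymal receptor, had 2.71 and 3.41 RPKM in GLP 3A and 10.9 and 8.65 RPKM in wild type. Within the 9, the r of a gene with the mean of the others ran from 0.848 for Tfap2a to 0.994 for Lhx1.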

How the data were processed

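Of the 40 samples in the series, the 8 RNA-seq libraries of 4 groups were used, and the 32 chromatin samples, inputs included, are not analysed here. The authors deposited RPKM per gene symbol and locus for each library, per the file headers, with TopHat, Cufflinks, SAMtools, Bowtie 0.12.7 and build mm9 listed in the submitters' processing notes. No source used here says how reads of overlapping genes were assigned. The files hold no read counts, so relative depth was estimated from ratios of values at or under 0.15 RPKM (tolerance 1.5%) and is rough.

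Log2(RPKM + 1) was fitted with limma 3.58.1 in R 4.3.3, with 4 group means over all 8 libraries and a trended empirical Bayes prior. Two-sided p-values were adjusted by Benjamini-Hochberg over the 13198 genes that reached 1 RPKM in 2 or more libraries, and genes were called under 0.05. The script was tested on simulated data. The 9 regulators, the 7 lists of related genes and the marker lists were chosen with earlier results of these data known. Named are the regulators, up to 4 called and 2 uncalled genes per list and comparison by size of difference, Ehmt1, Ehmt2 and the 5 genes most like the regulators. Fst, Id1, Gli3, Chrd, Sox2 and Klf4 were named after their values were seen. Ehmt2 was not called with RA (adjusted p = 0.178). Map2, a neural marker, was not matched. Some genes that meet the naming rule are left out of the text. Alternatives were other pseudocounts, filters, scalings and priors, a replicate block, fewer libraries and each library left out.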

Additional observations from a re-analysis of the deposited data

Results flagged for a closer look

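A difference between genotypes in their response to RA was found by the interaction test for 4 of the 85 related genes (limma, Benjamini-Hochberg adjusted over all genes). The response of Id3, a BMP target, was smaller in GLP 3A cells by a log2 difference of -1.58 ± 0.20 (SE, adjusted p = 0.0277). It stood at 125 and 167 RPKM in GLP 3A cells with RA and 277 and 293 RPKM in wild-type cells with RA, and without RA at 78.8 and 70.1 RPKM in GLP 3A cells and 47.5 and 49.3 RPKM in wild-type cells. Pax3, a neural crest and somite factor, passed the filter only through the wild-type RA libraries, the group where it was high. Its response differed by -1.42 ± 0.21 (adjusted p = 0.0383), and it was at or under 0.055 RPKM in each untreated library. That of Gata3, a kidney field factor, differed by -1.16 ± 0.17 (adjusted p = 0.0381), with 7.92 and 9.22 RPKM in GLP 3A cells and 13.4 and 15.1 RPKM in wild-type cells with RA. Without RA the genotypes lay the other way, at 0.719 and 0.611 RPKM in GLP 3A cells and 0.102 and 0.267 RPKM in wild-type cells (0.49 ± 0.12, adjusted p = 0.0517), beside -0.67 with RA. Tcf15, a somite factor also present in stem cells, fell less with RA in GLP 3A (1.05 ± 0.17, adjusted p = 0.0449), from lower untreated levels of 21.8 and 19.6 RPKM in GLP 3A cells against 47.2 and 53.9 RPKM in wild-type cells, and its call was lost with the replicate number as a block (adjusted p = 0.0575). None of the 4 was called in all 8 fits that left out 1 library each: all 4 were lost without any one of the untreated libraries or of the wild-type RA libraries, Gata3 and Tcf15 also without GLP 3A RA replicate 1, and the highest adjusted p was 0.204.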

How the results depend on the processing

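The number of related genes called between genotypes with RA, 18 of 85, was 11 with no filter on low values and 0 with only the 4 libraries compared, and ran from 6 to 33 when 1 library was left out. Without RA the 8 called became 19 with only the 4 libraries compared and 3 to 11 with 1 left out. The RA calls, 70 in GLP 3A and 78 in wild type, became 39 in GLP 3A and 45 in wild type with a filter of 5 RPKM, which left 46 genes to test. With 1 library left out they ran from 65 to 73 in GLP 3A and from 74 to 80 in wild type. The 4 calls for the difference of RA responses became 2 with a pseudocount of 0.1 RPKM, 1 with no filter, 8 with robust empirical Bayes and 0 to 17 with 1 library left out. The median of the regulators for that difference, -0.87, was -1.39 with the pseudocount of 0.1 RPKM, -2.06 with the filter of 5 RPKM, which kept 5 of the 9, and ran from -1.26 to -0.82 with 1 left out. Their median difference with RA, -0.82, was -1.07, -1.99 and -1.20 to -0.82 under the same settings. Foxf1a changed sign without GLP 3A RA replicate 2, to 0.15 with RA and 0.13 for the difference of responses, and was -0.36 and -0.38 without replicate 1. Median-of-ratios and quantile scaling moved the median of all genes by less than 0.1. The cause of these shifts was not tested, and some of the settings also changed how many genes or libraries entered the fit.

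The replicate numbers are shared by the groups, and nothing in the labels says that they pair samples. Deviations of same-numbered libraries correlated by 0.169 to 0.355 across genes. With the replicate number as a block, 24 related genes were called between genotypes with RA, 9 without RA, 76 for RA in GLP 3A, 79 for RA in wild type, and 4 for the difference of responses. Those 4 were 4 smaller and 0 larger in GLP 3A, against 3 and 1: Tcf15 was lost (adjusted p = 0.0575) and Zic1 gained (0.0474). Of the 9 without RA, 5 were higher and 4 lower, against 3 and 5, with Chrd lost (0.0525). The block ended no other call between genotypes. The medians of the regulators were unchanged under it at -0.87 and -0.82. Depth limits the untreated levels, which rest on few reads.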
